A study of Mus musculus with 26 samples.

Results

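The skeletal muscle sarcomere genes measured in brown adipose tissue (BAT) of mice were 38 of the 50686 genes listed, chosen by name as genes of the contractile apparatus of skeletal muscle and of its calcium handling. Of these, 11 encode thick filament proteins, 9 thin filament proteins, 10 titin and proteins of the M band and Z disc, 2 proteins of energy and oxygen supply, and 6 proteins of calcium cycling. By textbook use, 13 belong to fast fibres and 8 to slow fibres, and 17 are used by both. All 38 were listed with counts, and 37 passed the filter on low counts. Sarcolipin (Sln) did not.

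RNA was sequenced from BAT of 26 male C57BL/6J mice of 12 to 16 weeks, all kept at thermoneutrality for 2 weeks. The WT30 group held 7 control littermates and the KO30 group 7 mice labelled Afadin KO, both taken at thermoneutrality, which the labels give as 30 °C and the methods as 29 °C. The WT5 group held 5 control littermates and the KO5 group 7 mice labelled Afadin KO, taken after a further 6 h at 5 °C. The knockout combined an Adiponectin-Cre transgene with floxed alleles of the Afadin gene (Mllt4, now Afdn), so that recombination is driven in adipocytes of every depot and muscle fibres are not its target. The tissue is labelled as supraclavicular BAT, and the muscle that lies around this depot was not sampled.

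The libraries held 12705969 to 25732258 counts assigned to genes. Afdn, counted over the whole gene, ran from 152 to 214 CPM (counts scaled to a common library size) in WT30 and from 154 to 231 in KO30, so that the labels were not told apart by it at thermoneutrality. After cold it ran from 67.9 to 79.2 CPM in WT5 and from 53.3 to 65.3 in KO5. Ucp1, the uncoupling protein of brown adipocytes, was present at 551 CPM or more in every mouse, and Cidea, another gene of brown adipocytes, at 933 to 1514 CPM. The heart genes Nppa and Myh6 had at most 2 and 6 counts in any mouse, and Pax7, a marker of muscle stem cells, at most 3.

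In striated muscle, myosin heads of the thick filament pull on actin of the thin filament when calcium, released from the sarcoplasmic reticulum, binds troponin and shifts tropomyosin. Fast and slow fibres build this machine from different paralogs of myosin, troponin and their partners. Brown adipocytes arise from a lineage related to that of skeletal muscle but do not assemble sarcomeres, and BAT depots lie against muscle.

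The promoters of 4 members are shown because these genes stand for the patterns described here: Acta1 and Myh4 for the genes that rose and fell together between mice, Ckm for energy supply, and Tnnt1 for the slow fibre genes. Each line holds the 200 bases before the RefSeq start in GRCm38.p6, on the strand of the gene. They are chr8:123894776-123894975 (minus strand) for Acta1, chr11:67237612-67237811 (plus strand) for Myh4, chr7:19410894-19411093 (plus strand) for Ckm and chr7:4515976-4516175 (minus strand) for Tnnt1. Capitals mark matches on either strand to the E-box CANNTG, to TATAAA, to the CArG box or to the MEF2 motif, and overlapping matches run together.
Acta1: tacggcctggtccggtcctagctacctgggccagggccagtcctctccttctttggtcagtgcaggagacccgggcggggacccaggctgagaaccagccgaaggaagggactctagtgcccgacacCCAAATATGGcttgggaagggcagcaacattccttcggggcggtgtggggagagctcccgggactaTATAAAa
Myh4: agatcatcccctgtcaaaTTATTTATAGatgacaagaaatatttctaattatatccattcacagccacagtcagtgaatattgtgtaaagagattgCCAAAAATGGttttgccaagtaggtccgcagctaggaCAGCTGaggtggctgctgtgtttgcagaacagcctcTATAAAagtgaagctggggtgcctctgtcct
Ckm: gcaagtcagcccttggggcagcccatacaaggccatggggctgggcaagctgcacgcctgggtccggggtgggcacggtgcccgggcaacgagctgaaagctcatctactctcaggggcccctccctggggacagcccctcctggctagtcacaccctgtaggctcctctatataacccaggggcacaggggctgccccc
Tnnt1: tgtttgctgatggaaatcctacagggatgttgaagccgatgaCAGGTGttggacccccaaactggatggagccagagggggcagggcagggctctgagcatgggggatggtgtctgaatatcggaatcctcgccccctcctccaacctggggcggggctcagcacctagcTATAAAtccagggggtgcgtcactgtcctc
In windows of 250 bases before to 50 after a RefSeq start, 36 windows matched 29 of the members. Only the 200 bases before the start were searched in each window. The CArG box was found in 16.7% of these windows and in 1.18% of all 32851 windows, and the MEF2 motif in 13.9% and 2.29%. An E-box, a short motif, was found in 72.2% and 58.2%, and TATAAA in 13.9% and 9.96%. The printed window of Ckm held no match to any of the 4 motifs, and the others held at least 1.

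The share of a library taken by the 38 genes differed far more between mice of one group than between the groups. In WT30 the summed share was lowest at 0.0101%, had a median of 0.0256% and reached 2.14% in mouse 7 (95% Wilson interval 2.137 to 2.151). In KO30 it ran from 0.00944% over a median of 0.297% to 0.588%. The 5 WT5 mice had 1.65%, 0.217%, 0.00624%, 0.27% and 0.69%, in the order of mice 16, 17, 18, 19 and 21. In KO5 it ran from 0.00611% over a median of 0.256% to 1.73%. Each group therefore held mice with almost no muscle transcripts and mice rich in them, and the groups overlapped for 38 of the 38 genes in each of the 4 comparisons. The share of all genes with such an overlap was not counted. Across all 26 mice the share spanned 351-fold. At its lowest, in KO5 mouse 27, the gene Myl1 alone gave 454 of the 1160 counts of the members. The intervals cover counting error only. In bulk tissue, fewer muscle fibres in a sample and less RNA per fibre cannot be told apart.

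**Figure D1:**
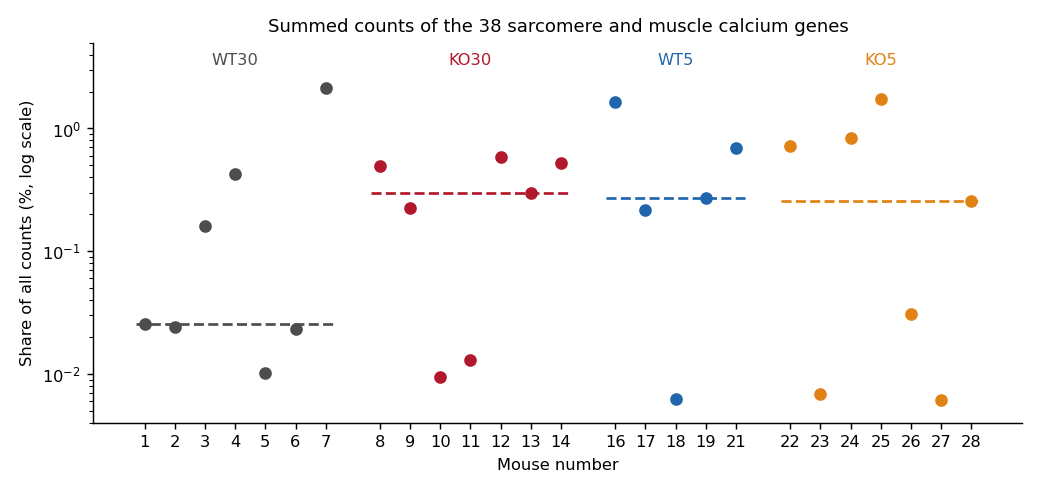
Summed counts of the 38 genes as a percentage of all counts (log scale), 1 point per mouse by mouse number, coloured by group, with 95% Wilson intervals that are smaller than the points and a dashed line at the group median. The 4 groups overlap, and WT30 mouse 7 at 2.14%, KO5 mouse 25 at 1.73% and WT5 mouse 16 at 1.65% are highest.

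Compared per length of exon, as CPM per kilobase (RPKM), the members differed widely in level. In the mouse with the most of each, Acta1, the skeletal muscle actin, reached 822 RPKM, Myh4, the myosin heavy chain of the fastest fibres, 633, and Tnnt3, fast troponin T, 405. Parvalbumin (Pvalb), a calcium buffer of fast fibres, followed with 324, the fast regulatory light chain Mylpf with 268 and muscle creatine kinase (Ckm) with 258. Of the slow fibre genes, the myosin binding protein Mybpc1 reached 47.6 RPKM, Myh7 33.9 and slow troponin I (Tnni1) 11.5, beside 18.8 for the fast myosin Myh2. Last came the calcium channels Ryr1 and Cacna1s with 10.5 and 10.2, Myoz2, a Z disc protein of slow fibres, with 6.11, and Sln, a small inhibitor of the calcium pump, with 1.76. Neighbours in this order, such as Ckm at 258 and fast troponin I (Tnni2) at 248, were much closer to each other than 2 mice of a group. Titin (Ttn), the giant elastic protein that spans from Z disc to M band, reached 78.5 RPKM, yet its 116825 bases of exon gave it 12.7% to 51.2% of the members' counts in a mouse.

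Among the thick filament genes, the myosin heavy chains showed which fibres were represented. Myh4 (ENSMUSG00000057003.12, chr11:67238029-67260446) had in WT30 a lowest level of 3.63 CPM, a median of 34.6 and a highest of 2713. In KO30 it ran from 1.4 over 369 to 771 CPM and in KO5 from 0.0605 over 350.2 to 3808. The WT5 mice 16, 17, 18, 19 and 21 had 2099, 305, 0.172, 399 and 746 CPM. Mouse 18 stood below every mouse at thermoneutrality, and the other 4 lay within the range of WT30. Myh1 and Myh2, the heavy chains of the other fast fibres, lie beside Myh4 on chromosome 11 and resemble it closely in sequence. How reads that fit several of them were counted is not given in the sources used here, so the split between the 3 is uncertain. Myh7 (ENSMUSG00000053093.15, chr14:54970684-54994626), the slow and cardiac heavy chain, was much lower, with 0, 0.437 and 62.5 CPM as lowest, median and highest level in WT30, 0, 10.3 and 15.5 in KO30, and 0, 1.79 and 292 in KO5. In WT5 it had 122, 8.01, 0, 0 and 34.7 CPM in mice 16, 17, 18, 19 and 21. The light chains differed in their floor. Mylpf was as low as 5 counts in 1 mouse, whereas Myl1, the fast essential light chain, never fell below 454 counts. Myl1 spanned 12.3-fold across the 26 mice, from 25.5 to 314 CPM, and was the most even of the 38 genes.

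The thin filament genes followed the same mice. Acta1 (ENSMUSG00000031972.5, chr8:123891769-123894751) had a mean of 191 ± 347 CPM (SD, n = 7) in WT30, with 0.927, 8.99 and 945 as lowest, median and highest level. In KO30 it ran from 0.873 over 137 to 280.1 CPM, and in KO5 from 0.665 over 139 to 1263. The WT5 mice had 934, 106, 0.129, 139 and 362 CPM, in the order given above. No group lay apart from another. Tnnt3 ran from 0.172 CPM in WT5 mouse 18 to 641 in KO5 mouse 25. Tnnt1, slow troponin T, reached 10.9 CPM in WT30, 3.2 in KO30, 24.6 in WT5 and 52.1 in KO5, and its group medians were between 0.322 and 1.88 CPM. Tropomyosin 2 (Tpm2), which smooth muscle also uses, was at 6.05 CPM or more in every mouse and reached 411. Nebulin (Neb), the ruler of thin filament length, was at 4.56 CPM or more and reached 1230.

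For titin, the M band and the Z disc, Ttn (ENSMUSG00000051747.14, chr2:76703980-76982547) ran from 14.8 over 87.8 to 7605 CPM in WT30, from 12.8 over 1108 to 2121 in KO30, and from 9.07 over 1130 to 9167 in KO5. In WT5 it was at 8678, 1265, 8.75, 1329 and 3569 CPM. Ttn was thus detected in every mouse, with 150 counts or more. The same held for 7 other members, which had at least 10 counts in every mouse: Myl1, Tpm2, Neb, the myosin binding protein Mybpc2, myomesin 1 (Myom1) of the M band, and the Z disc proteins alpha-actinin 2 (Actn2) and Ldb3. By contrast, 17 of the 38 genes were at 0 in at least 1 mouse. Actn3, the alpha-actinin of fast fibres, ran from 0.116 to 377 CPM while Actn2 ran from 2.01 to 57.4.

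Of the 2 genes of energy and oxygen supply, Ckm had 0.464, 5.48 and 618 CPM as lowest, median and highest level in WT30, 0.407, 76.4 and 165 in KO30, and 0, 95.9 and 752 in KO5. The WT5 mice had 472, 55.8, 0.0858, 81.2 and 201 CPM. Myoglobin (Mb), which stores oxygen in muscle, spanned a smaller range. It ran from 2.16 over 5.68 to 27.1 CPM in WT30, from 2.77 over 9.14 to 27.07 in KO30, and from 0.181 over 7.47 to 99.6 in KO5, with 54.8, 11.7, 0.558, 5.98 and 28.9 in WT5. No mouse at thermoneutrality had fewer than 28 counts of Mb, whereas the lowest mouse after cold had 3, a difference that was seen in the values and not tested.

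**Figure D2:**
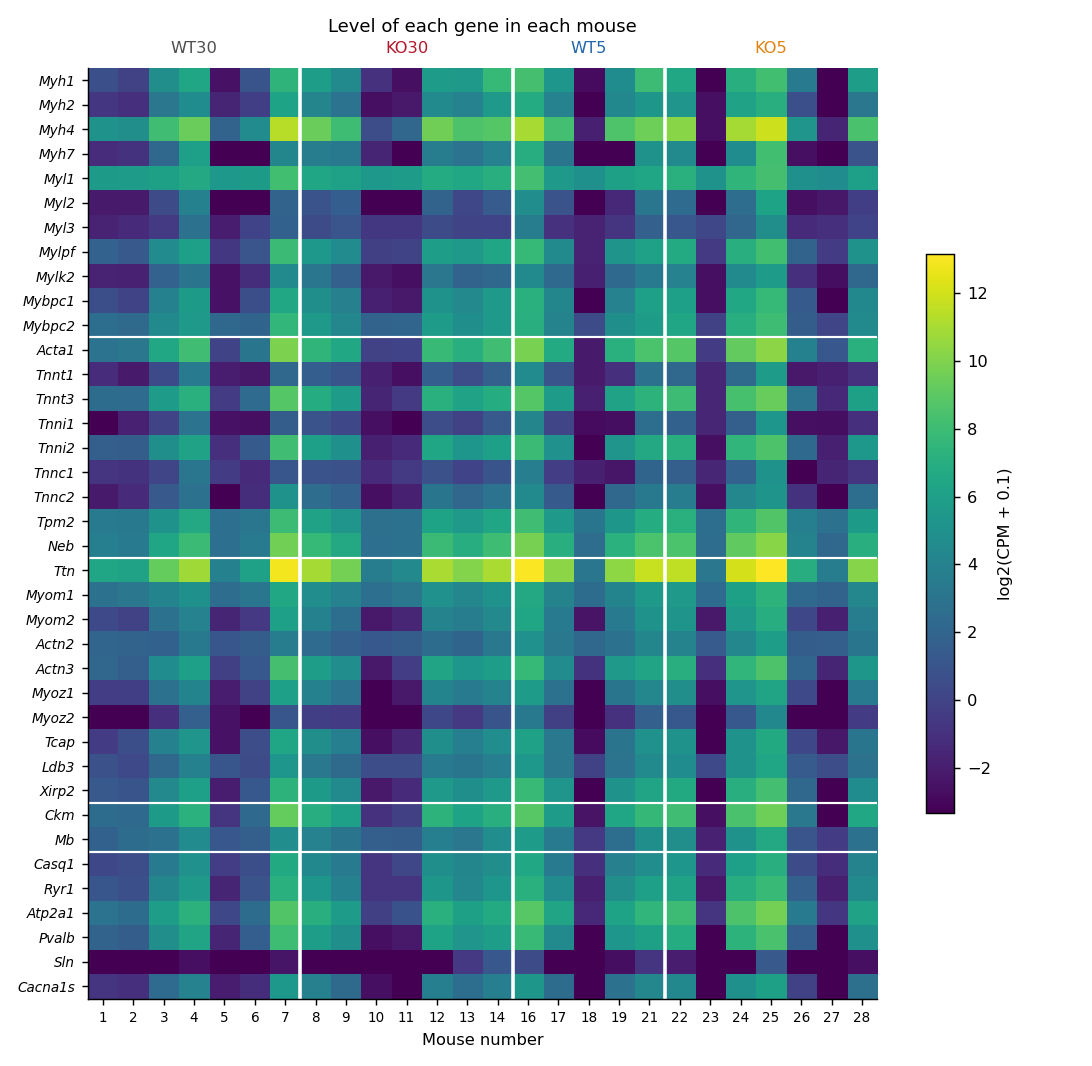
Level of each of the 38 genes (rows, ordered by role with white lines between roles) in each of the 26 mice (columns by mouse number, with white lines between groups), as log2(CPM + 0.1). Columns are bright or dark as a whole in all 4 groups, while Myl1 stays bright in every mouse and Sln is dark in nearly all.

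The genes of calcium cycling went with the filaments, except Sln. Atp2a1 (ENSMUSG00000030730.12, chr7:126445858-126463108), the calcium pump of fast fibres, ran from 1.08 over 7.67 to 420.5 CPM in WT30, from 0.757 over 65.2 to 143 in KO30 and from 0.484 over 72.5 to 854 in KO5. The WT5 mice had 464, 80.4, 0.258, 75.8 and 187 CPM. Ryr1, the calcium release channel, reached 141 CPM in WT30, 42.1 in KO30, 140.4 in WT5 and 229 in KO5, and its lowest levels were between 0.121 and 0.466. Cacna1s, the voltage sensor coupled to it, and Casq1, which binds calcium in the reticulum, reached 66.9 and 126 CPM. Pvalb ran from 0 CPM in 3 mice to 338 in KO5 mouse 25.

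Sln (ENSMUSG00000042045.6, chr9:53850164-53854560) was at 0 in 16 of the 26 mice, which allows up to 3 counts in each of these libraries. It had 43 counts in KO30 mouse 14, 39 in KO5 mouse 25, 22 in WT5 mouse 16, 11 in KO30 mouse 13 and 8 in WT5 mouse 21, and at most 2 in the others. WT30 mouse 7, which had the highest share of muscle transcripts, had 2 counts. Mouse 14 of KO30 also had the highest share of Myh1 among the 15 mice with 10 or more counts of Myh7, 28.8% of the counts of the 4 heavy chains. WT5 mouse 21 followed with 23.8% and KO5 mouse 28 with 14.2%, although KO5 mouse 28 had 1 count of Sln. WT5 mouse 16 had 11.8%, KO30 mouse 13 had 10.6% and KO5 mouse 25 had 6.43%. WT5 mouse 17 had 11.0% with 0 counts of Sln. Sln was too low to be tested between groups.

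Within groups, the members were among the most variable genes of the tissue. The SD of log2 CPM between mice of one group had a median of 3.25 over the 37 members tested (1.08 in Myl1 to 4.6 in Myh4) and of 0.254 over all 17286 genes tested. It was above 1 for 37 of 37 members and for 1.61% of all genes. Myh4 ranked 1, Ckm 2 and Acta1 5 among all genes by this SD, and 33 members stood among the 100 most variable genes.

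Once each group's mean was removed, the members rose and fell together. Over 26 mice, log2 CPM of Acta1 correlated with that of Ttn at r = 0.995 (Spearman's rho 0.986), of Atp2a1 at 0.992 (0.98), of Pvalb at 0.991 (0.981), of Ryr1 at 0.99 (0.983), of Ckm at 0.985 (0.979), of Myh4 at 0.979 (0.975), of Casq1 at 0.975 (0.99) and of Tpm2 at 0.956 (0.988). Each of these 8 had a permutation p of 1e-05, the smallest that 100000 permutations can give, and an adjusted p of 1.08e-05 over the 13 pairs tested. Without the 2 mice farthest from the median, WT5 mouse 18 and KO5 mouse 23, r stayed at 0.963 or above. The points share a library and its scaling. Acta1 left a gap between 14.8 and 89.02 CPM, with 10 mice below it and 16 above, and on each side of it r for these pairs was at least 0.847. The 2 sides held mice of every group, with 4 of WT30, 2 of KO30, 1 of WT5 and 3 of KO5 below the gap.

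Of the 8 slow fibre genes, 1 had r above 0.9 with Acta1, Mybpc1 at 0.991, and the other 7 had at least 0.719. Of the 13 fast fibre genes, 12 were above 0.9, and Myl1 had 0.84. Myh7 had r = 0.882 with Acta1 (rho 0.919, permutation p = 1e-05), which became 0.708 in the 16 mice above the gap and 0.469 in the 10 below. Mb had r = 0.924 (rho 0.958, permutation p = 1e-05), and 0.914 above and 0.886 below. Among the troponins, Tnnt1 and Tnnt3 had r = 0.85 (rho 0.921, permutation p = 1e-05), which was 0.822 above the gap and -0.31 below it, where Tnnt1 rests on 5 counts or fewer. Within the slow set, Myh7 and Tnnt1 had r = 0.973 (rho 0.98, permutation p = 1e-05) and 0.95 above the gap. Sln had the lowest r with Acta1, 0.544 (rho 0.598, permutation p = 0.00793 and 0.00071), and 0.622 above the gap. All 13 pairs passed at an adjusted p of 0.05. Over all tested genes the median r with Acta1 was -0.03. Of the 36 other members tested, 27 had r above 0.9. Among all 17286 genes tested, Acta1 and the other members included, 104 did. So did 23 of 53 muscle genes that are not members and are described below.

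**Figure D3:**
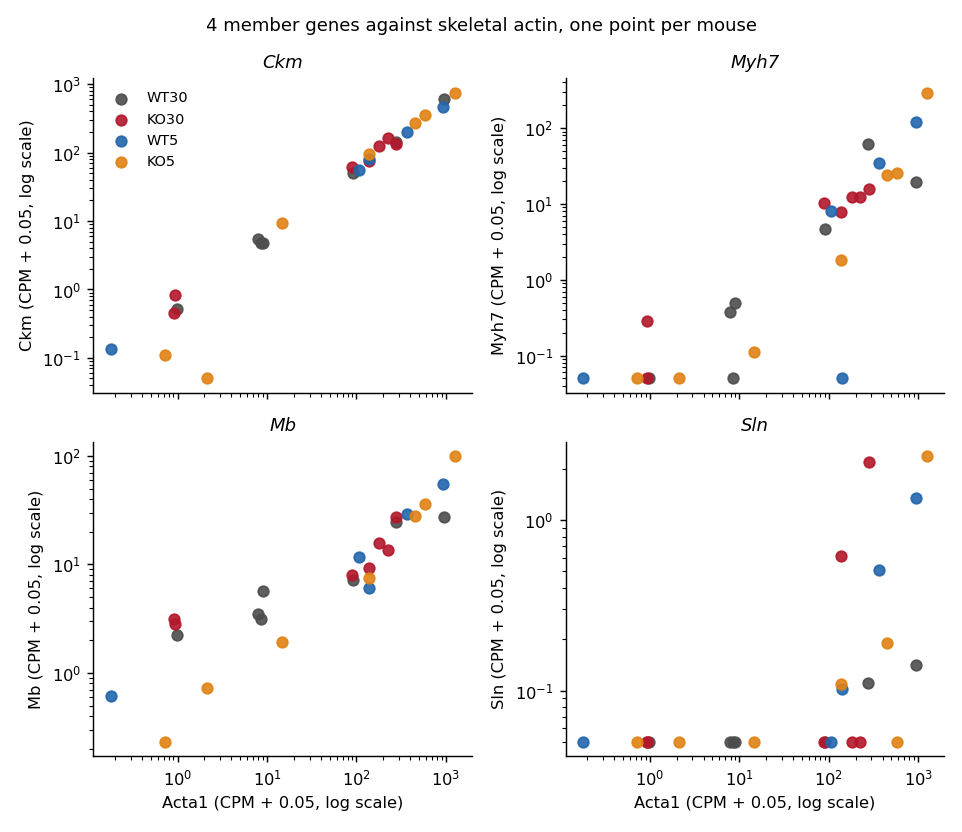
Ckm, Myh7, Mb and Sln against Acta1, each as CPM + 0.05 on log axes, 1 point per mouse coloured by group. Ckm falls on a line (r = 0.985), Mb flattens (0.924), Myh7 scatters (0.882) with WT5 mouse 19 at 0, and Sln lies on the floor in most mice (0.544).

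Exposure to cold was compared within each genotype to ask which genes of BAT respond to it. In control mice, 0 of the 37 members passed in either direction at a Benjamini-Hochberg adjusted p of 0.05 (quasi-likelihood test of edgeR), where 31.6% of all genes tested were called higher and 33.4% lower. DESeq2 also called 0, and at an unadjusted p of 0.05 the count was 1. The median log2 fold change of the members was 0.74, beside -0.01 over all genes. Without WT30 mouse 7 it was 1.98, and without WT5 mouse 16 it was -0.22. The median standard error was 1.23 for members and 0.15 for all genes, so that changes of the size usual for other genes were not detectable here. Acta1 had a log2 fold change of 0.69 (95% interval -2.15 to 3.52), Myh4 of 0.40 (-2.63 to 3.43), Myh7 of 1.38 (-1.44 to 4.21) and Mb of 0.94 (-0.92 to 2.80). Those of Tnnt3, Tnnt1, Ttn, Ckm, Ryr1, Atp2a1, Pvalb and Tpm2 lay between 0.36 and 1.42, each with an interval that includes 0. The sign was positive for 37 of 37, but these values rest on the same few mice and are not independent. The group median of the CPM was higher after cold for 37 of the 38 genes.

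In mice labelled Afadin KO, 2 of the 37 members passed as higher after cold and 0 as lower, where 33.7% and 34.9% of all genes tested were called. Actn2 (ENSMUSG00000052374.14, chr13:12269426-12340760), which crosslinks actin in the Z disc, ran from 2.27 over 3.93 to 9.44 CPM in KO30 and from 2.54 over 8.49 to 57.4 in KO5. The groups overlapped, and 4 KO5 mice lay within the range of KO30. Its log2 fold change was 1.75 (SE 0.60), with a Benjamini-Hochberg adjusted p = 0.012 in the quasi-likelihood test of edgeR. Myl3 (ENSMUSG00000059741.13, chr9:110741861-110769798), the essential light chain of slow and ventricular myosin, ran from 0.524 over 0.93 to 1.98 CPM in KO30 and from 0.305 over 1.03 to 28.1 in KO5. KO5 mouse 25 was far above the other 6, which had at most 4.27 CPM. Its log2 fold change was 2.29 (SE 0.96, adjusted p = 0.0376 in the same test). Without KO5 mouse 25, the log2 fold change of Myl3 was 0.42 (adjusted p = 0.689) and that of Actn2 0.90 (adjusted p = 0.135), and 0 members passed in edgeR's test. The call of Myl3 was also lost without KO30 mouse 8, 10, 11, 12, 13 or 14, with an adjusted p of 0.0541, 0.0631, 0.0635, 0.0545, 0.0623 and 0.0627 from edgeR, although the log2 fold change stayed between 2.18 and 2.31. Genes of other cells also changed with cold in these mice. The summed level of 5 heart markers was 0.964 to 1.65 CPM in KO30 and 1.57 to 7.48 in KO5, of which the calcium channel Ryr2 had 0.587 to 1.40 and 0.846 to 7.09. Ryr2 passed as higher (log2 fold change 1.55, adjusted p = 0.00037 from edgeR, and 1.5 with 0.00178 in control mice), and the other 4 were too low to be tested, with at most 0.358 CPM of Myh6 and 0.122 of Nppa in KO5. Of 5 markers of vascular smooth muscle, 4 passed as higher and 1 as lower, and their sum was 50.1 to 63.7 CPM in KO30 and 44.0 to 67.8 in KO5. All 3 of red blood cells passed as higher, with sums of 258 to 564 and 464 to 1360 CPM, as did all 3 of endothelium, with 383 to 511 and 535 to 756. Of the macrophage markers, 1 passed as higher and 2 as lower, and of the Schwann cell markers 0 and 1. Adipocyte markers had 2 higher and 2 lower, and brown adipocyte markers 2 and 1. The part of these cells in the calls of Actn2 and Myl3 was not tested.

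Actn2 in control mice went from 2.01, 3.75 and 12.6 CPM as lowest, median and highest level in WT30 to 32.1, 9.62, 4.46, 7.33 and 18.7 in the 5 WT5 mice. The log2 fold change of 1.37 (SE 0.64) fell just short of the threshold, with an adjusted p = 0.0617 from edgeR. Actn2 passed there in 6 of 26 edgeR fits that each left out 1 mouse (WT30 mouse 4 or 7, WT5 mouse 18 or 19, KO5 mouse 23 or 25), with log2 fold changes from 1.36 to 1.71, and in 25 of 26 in mice labelled Afadin KO. With log2 CPM of Ckm as a covariate, an alternative chosen after the data were seen, the log2 fold change of Actn2 was 1.08 in control mice (edgeR adjusted p = 0.0079) and 1.34 in mice labelled Afadin KO (0.000719), and that of Myl3 in the latter 1.56 (0.04997).

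Over the 37 members, the median log2 fold change in mice labelled Afadin KO was 1.41 beside -0.03 over all genes, and 0.42 without KO5 mouse 25. The log2 fold changes ran from 0.41 for Myl1 to 2.84 for Myl2, the slow regulatory light chain. DESeq2 called the same number, 2, and at an unadjusted p of 0.05 the count was 6. Acta1 had 1.42 (95% interval -1.24 to 4.09), Ckm 1.39 (-1.25 to 4.04), Myh7 2.55 (-0.19 to 5.29) and Tnnt1 2.29 (0.03 to 4.55, adjusted p = 0.0798 from edgeR). Myh4, Tnnt3, Ttn, Ryr1, Mb, Atp2a1, Pvalb and Tpm2 lay between 1.12 and 1.64 with intervals that include 0. Here the group median of the CPM was higher after cold for 15 of the 38 genes, while the fitted log2 fold change, which compares group means, was positive for 37 of 37. KO5 mouse 25 had the highest share of muscle transcripts in its group, 1.73%, beside a group median of 0.256%.

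**Figure D4:**
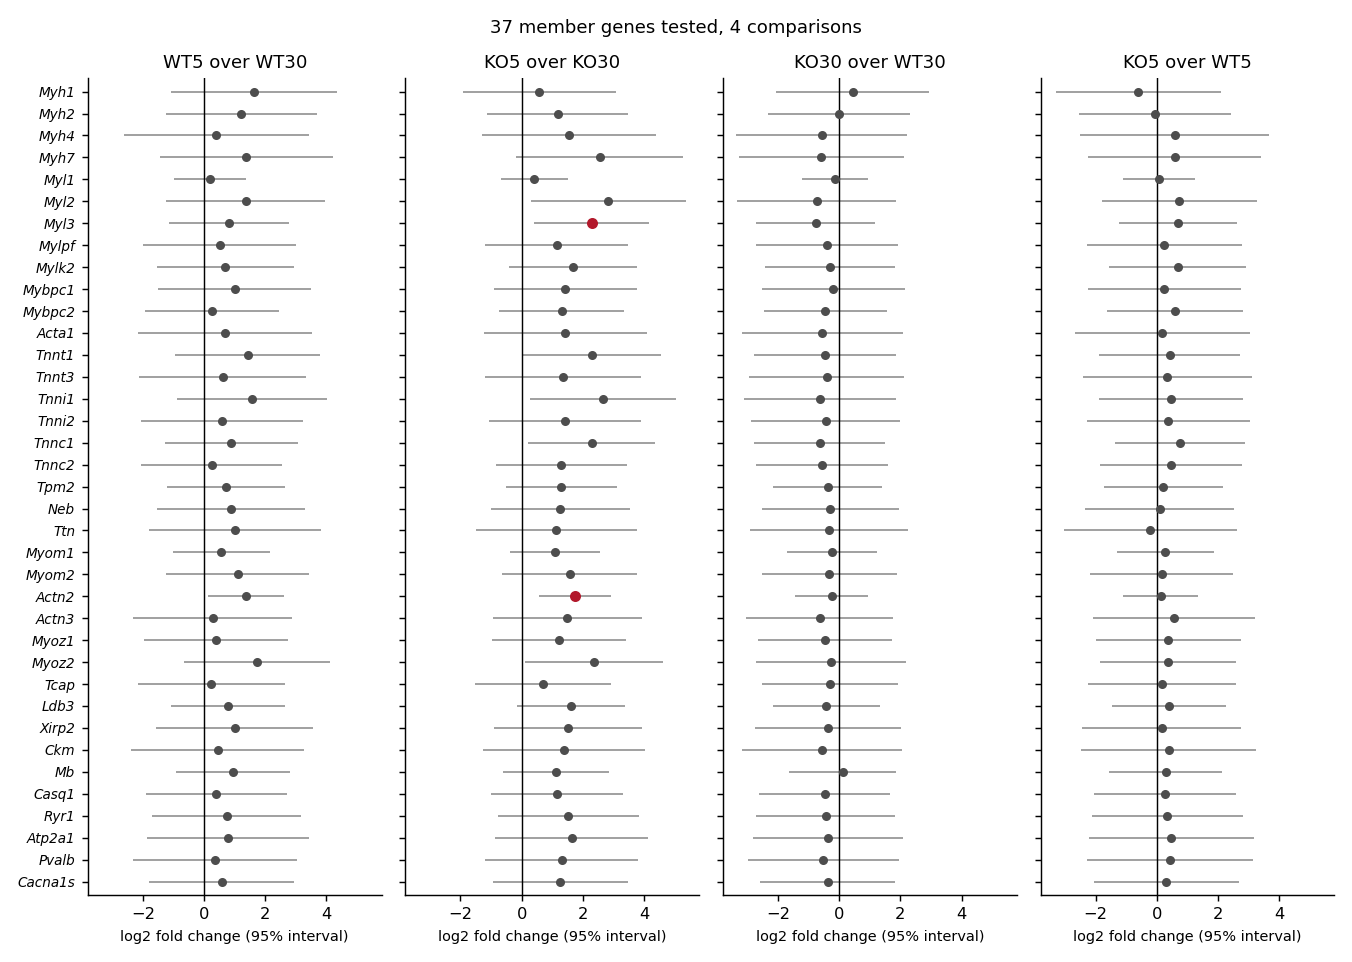
Log2 fold change (x axis, with 95% intervals) of the 37 members tested (y axis) in 4 comparisons. Actn2 and Myl3 after cold in mice labelled Afadin KO (larger red points) are the 2 that passed at an adjusted p of 0.05. Of the others, only Actn2 in control mice and Myl2, Tnnt1, Tnni1, Tnnc1 and Myoz2 in mice labelled Afadin KO have an interval that leaves out 0.

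Between the genotypes, the label was compared at each temperature. At thermoneutrality 0 of 37 members passed in edgeR's quasi-likelihood test, where 0.081% of all genes tested were called, DESeq2 called 0 and 0 had an unadjusted p below 0.05. The median log2 fold change of KO30 over WT30 was -0.42, and the group median of the CPM was higher in KO30 for 37 of the 38 genes, so that the mean and the median pointed opposite ways. Without WT30 mouse 7, which held the highest summed share of all mice, the median log2 fold change was 0.94. It was -0.21 without WT30 mouse 4, -0.19 without KO30 mouse 10 and -0.20 without KO30 mouse 11. Acta1 had a log2 fold change of -0.55 (95% interval -3.17 to 2.07), Myh7 of -0.58 (-3.29 to 2.12) and Mb of 0.11 (-1.63 to 1.85). After cold, again 0 of 37 passed with edgeR, where 0.139% of all genes were called, DESeq2 called 0 and 0 had an unadjusted p below 0.05. The median was 0.34. It was -0.60 without KO5 mouse 25, 1.32 without WT5 mouse 16, 0.14, 0.015 and 0.12 without WT5 mouse 17, 18 and 19, 0.17 without KO5 mouse 24, and 0.55, 0.55 and 0.56 without KO5 mouse 23, 26 and 27. Acta1 had 0.18 (95% interval -2.69 to 3.05), Myh7 0.58 (-2.24 to 3.40) and Mb 0.29 (-1.57 to 2.14). Scaled by library size alone, Acta1 had -0.05. The difference between the cold responses of the genotypes was called by edgeR for 0 of 37 members and for 1.16% of all genes, with 0 members at an unadjusted p below 0.05 and 0 by DESeq2. Its median over the members was 0.76, but -0.57 without WT30 mouse 7, -0.30 without KO5 mouse 25, 1.75 without WT5 mouse 16, 0.45 without WT30 mouse 4 and 0.44 without WT5 mouse 18. The value was 0.73 for Acta1 (-3.16 to 4.63), 1.17 for Myh7 (-2.74 to 5.07) and 0.18 for Mb (-2.36 to 2.72). The width of these intervals leaves room for sizeable differences in either direction.

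Fast and slow paralogs were set against each other within each mouse, as the log2 ratio of their counts per exon length after adding 0.5 counts. Over 26 mice, the median was 6.26 for Myh4 over Myh7, 5.24 for Mylpf over Myl2, 6.33 for Myl1 over Myl3, 5.47 for Tnnt3 over Tnnt1, 6.08 for Tnni2 over Tnni1 and 4.42 for Myoz1 over Myoz2, each far to the fast side. The remaining pairs were nearer to 0, the myosin binding proteins Mybpc2 over Mybpc1 at 0.95 and the troponins C, Tnnc2 over Tnnc1, at 1.55. Mybpc1 is slow by textbook use, but its r with Acta1 was 0.991, beside 0.882 for Myh7. Of the 32 tests of 8 pairs in 4 comparisons, 0 passed, and the smallest p in an exact two-sided permutation test was 0.0851, for Myl1 over Myl3 after cold in mice labelled Afadin KO (5.47 ± 1.02, SD, n = 7, against 6.28 ± 0.635, n = 7, adjusted exact p = 0.978). For this pair, Myl1 still had 454 counts in KO5 mouse 27, where Myh4 had 4. In mice with so little muscle RNA, Myl1 over Myl3 need not reflect fibre type. The smallest p that the 32 tests allow was 0.000583 for 7 against 7 mice and 0.00126 for 5 against 7. No change in these ratios shared by the mice of a group was detected. The SD within a group reached 4.388, for Myh4 over Myh7 in WT5 (n = 5), so that sizeable changes could be missed. In mice with few counts of a pair, the ratio also depends on the 0.5 counts added.

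The libraries of single mice differed in the ratio of fast to slow transcripts all the same, which was described and not tested. Among the 15 mice with 10 or more counts of Myh7, Myh4 over Myh7 spanned 17.6-fold, from a log2 ratio of 3.97 in WT30 mouse 4 to 8.11 in KO5 mouse 28. Myh7 made up 7.3% of the counts of the 4 heavy chains in WT30 mouse 4 and 6.46% in KO5 mouse 25, but 0.645% in WT30 mouse 7, although mouse 7 had the highest share of muscle transcripts. In WT5 mouse 19 there were 7681 counts of Myh4 and 0 of Myh7, which allows up to 3. The slow troponins were low there too, with 7 counts of Tnnt1 beside 1391 of Tnnt3 and 2 of Tnnc1 beside 86 of Tnnc2, whereas Mybpc1 had 299 counts beside 575 of Mybpc2. KO5 mouse 28 had 7 counts of Tnnt1 beside 1108 of Tnnt3. In mice with little muscle RNA the ratios rest on a handful of counts, such as 4 each of Tnnt3 and Tnnt1 in KO5 mouse 23. For troponin C, the slow and cardiac form Tnnc1 had 584 counts beside 611 of Tnnc2 in KO5 mouse 25, and 44 beside 733 in WT30 mouse 7.

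**Figure D5:**
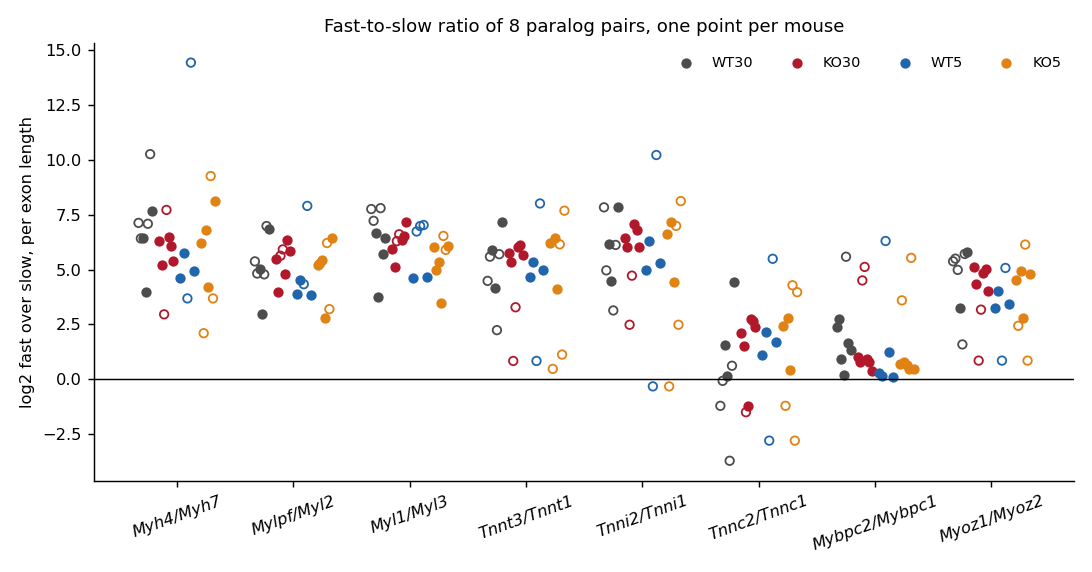
Log2 ratio of the fast over the slow paralog, per exon length, for 8 pairs and 26 mice coloured by group. Open circles mark mice with fewer than 10 counts of the slow paralog, and the 4 groups overlap in every pair.

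A further list of 62 muscle genes outside the sarcomere genes named here was read for the same comparisons, and 53 of them were tested. After cold, 9 passed as higher and 2 as lower in control mice and 15 and 3 in mice labelled Afadin KO, with edgeR. That is 17% higher and 3.77% lower of those tested in control mice, beside 31.6% and 33.4% of all genes, and 28.3% and 5.66% in mice labelled Afadin KO, beside 33.7% and 34.9%. Of the list, 0 differed between the genotypes at either temperature with edgeR (unadjusted p below 0.05 in 0). Of all genes tested, 0.081% were called at thermoneutrality and 0.139% after cold, so a count of 0 says little about the list. DESeq2 also called 0, but gave no adjusted p for 6 of these genes at thermoneutrality and 8 after cold. Atp2a2, the calcium pump of slow muscle, heart and many other cells, had 178 to 261 CPM in WT30, 189.8 to 234 in KO30, 833 to 900.0 in WT5 and 711 to 957 in KO5, so that the mice after cold did not overlap with those at thermoneutrality. Its log2 fold change was 1.98 in control mice (SE 0.08, adjusted p = 1.2e-16) and 2.00 in mice labelled Afadin KO (SE 0.08, adjusted p = 2.5e-17), both from edgeR. Its within-group SD was 0.143 and its r with Acta1 -0.249, in contrast to its fast paralog Atp2a1. Trim63, a ubiquitin ligase that acts on thick filament proteins, went from at most 6.1 CPM in WT30 and 2.58 in KO30 to medians of 21.9 in WT5 and 22 in KO5, with a log2 fold change of 4.77 in control mice (SE 1.23, adjusted p = 0.00138) and 5.55 in mice labelled Afadin KO (SE 1.21, adjusted p = 0.000235) in edgeR. It also rose and fell with Acta1 between mice, with r = 0.966 once group means were removed. The WT5 mouse lowest in Trim63 had 0.172 CPM. Myl4, the atrial and fetal light chain, rose by a log2 fold change of 2.33 in control mice (SE 0.20, adjusted p = 8.87e-11) and 1.83 in mice labelled Afadin KO (SE 0.18, adjusted p = 1.64e-09) in edgeR, with r = 0.148 to Acta1. Casq2, the cardiac and slow calsequestrin, fell by 1.61 (SE 0.62, adjusted p = 0.024) and by 1.74 (SE 0.55, adjusted p = 0.00645) on the log2 scale in edgeR, with a median of 4.15 CPM in WT30 and 0.901 in WT5.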

How the data were processed

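BAT of 26 mice was sequenced from rRNA-depleted total RNA (TruSeq Stranded) as 100-bp reads. Per the authors, STAR v2.5.2b was used for alignment (mm10) and featureCounts v1.5.2 with GENCODE M13 for counting, and the deposited values are raw counts. The strand setting and the treatment of reads with several matches are not given in the sources used here. Groups were taken from the labels. Symbols, positions and exon lengths came from GENCODE M21. In R 4.3.3, genes kept by filterByExpr were fitted with edgeR 4.0.16 (quasi-likelihood test, as the authors did with edgeR 3.22.0) with 1 term for each group, TMM factors and Benjamini-Hochberg adjustment over all 17286 genes, with a threshold of 0.05. CPM used TMM-scaled library sizes, and log2 CPM a prior count of 2. The 95% intervals of log2 fold changes span 1.96 SE to either side and can differ from the test near 0. Fast-to-slow ratios were compared with exact permutation tests (scipy 1.17.1). Members described in full were Acta1, Ckm, Myh4, Myh7, Tnnt3, Tnnt1, Ttn, Atp2a1, Pvalb, Sln, Ryr1, Mb and Tpm2, with up to 3 members past the threshold for each comparison and direction. Further muscle genes named were among the 3 with the smallest adjusted p in each direction, except Trim63, which was named after its values were seen. Myl1, Sln and the single mice were described after their values were seen. The members and lists were chosen with earlier results of these data known. Alternatives were DESeq2 1.42.0, other scalings, other filters, other edgeR settings, and leaving out each mouse. The fits were tested on simulated counts with the same dispersion for all genes, which did not cover genes as variable as the members. The total counts set the precision: a count of 0 allows up to 3 counts in a library.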

Additional observations from a re-analysis of the deposited data

Results flagged for a closer look

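In the WT5 group, mouse 18 lay far below the other 4 mice in 7 of the members described in full, judged on log2 CPM by the gap to the nearest mouse relative to the range of the group. It had 0.129 CPM of Acta1, 0.172 of Myh4, 0.172 of Tnnt3, 0.172 of Ryr1, 0.0858 of Ckm, 0.258 of Atp2a1 and 8.75 of Ttn. The 7 genes rise and fall together, so these are 1 observation of 1 mouse and not 7. In all, 52 groups of values were screened, and chance alone marks about 1 in 20. The library of mouse 18 was the deepest, with 25732258 counts. Leaving this mouse out brought Actn2 in control mice past the threshold (log2 fold change 1.61, edgeR adjusted p = 0.0356).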

How the results depend on the processing

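No paired analysis was possible because the mouse numbers are not shared between groups. After cold in control mice, 0 members were called higher and 0 lower, except 1 higher (Actn2) with only the groups compared in the fit, and 5 higher and 2 lower with log2 CPM of Ckm as a covariate, an alternative chosen after seeing the data. In mice labelled Afadin KO, 2 were called higher, which became 0 with library size alone, 1 with upper-quartile factors, 1 with at least 10 counts in every mouse, which leaves 8 members to test, 1 with robust empirical Bayes and 4 with the Ckm covariate, where 1 (Tcap) was also lower. With 1 mouse left out at a time, the count of members higher after cold ran from 0 to 1 in control mice and from 0 to 6 in mice labelled Afadin KO, and the other counts stayed at 0. The 1 in control mice came without WT30 mouse 4 or 7, WT5 mouse 18 or 19, or KO5 mouse 23 or 25. In mice labelled Afadin KO the count was 5 without WT30 mouse 4, WT5 mouse 16 or KO5 mouse 28, 4 without WT5 mouse 18, 6 without KO5 mouse 23, 26 or 27, 1 without KO30 mouse 8, 10, 11, 12, 13 or 14, and 0 without KO5 mouse 25. With library size alone the median over all genes moved from -0.03 to -0.34 for cold in mice labelled Afadin KO. Of 37 log2 fold changes followed (the members described in full for cold, and Acta1, Myh7 and Mb for the other comparisons), 22 changed direction when some mouse was left out. For cold in control mice these ran for Acta1 from -0.33 to 2.20, Atp2a1 from -0.13 to 2.00, Ckm from -0.49 to 2.16, Myh4 from -0.57 to 1.98, Myh7 from -0.25 to 2.90, Myl3 from -0.81 to 1.74, Pvalb from -0.75 to 1.79, Ryr1 from -0.086 to 2.05, Tnnt1 from -0.12 to 2.55, Tnnt3 from -0.42 to 2.02 and Tpm2 from -0.16 to 1.79. For cold in mice labelled Afadin KO they ran for Myh7 from -0.021 to 2.77 and Tnnt1 from -0.10 to 2.51. For the label at thermoneutrality they ran for Acta1 from -0.85 to 1.00, Mb from -0.26 to 0.57 and Myh7 from -0.81 to 0.93, for the label after cold for Acta1 from -0.65 to 1.21, Mb from -0.75 to 1.08 and Myh7 from -1.99 to 2.22, and for the interaction for Acta1 from -0.82 to 1.75, Mb from -0.85 to 0.98 and Myh7 from -1.41 to 2.80. None of these reversed values passed the threshold with all mice. With the Ckm covariate the direction turned in control mice for Myh4 (-0.35), Myh7 (-0.62), Tnnt3 (-0.069) and Pvalb (-0.38, which then passed), in mice labelled Afadin KO for Myh4 (-0.056), Myh7 (-0.58), Tnnt3 (-0.016) and Pvalb (-0.21), and for Myh7 between the labels after cold (-0.56). With library size alone it turned for Acta1 between the labels after cold (-0.047) and for Mb in the interaction (-0.16). The r of Tnnt1 with Tnnt3 was -0.31 in the mice below the Acta1 gap. For the rest, the cause was not tested. The count of ratio tests that passed stayed at 0 and that of correlated pairs at 13 in all alternatives run. Mice with few muscle counts limit every ratio and correlation of the slow genes.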
